A study of Mus musculus with 8 samples.

Results

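Ribosome biogenesis is described here through 44 named mouse genes that act in the nucleolus: subunits of RNA polymerase I and the factors that process ribosomal RNA and assemble the ribosomal subunits. The genes were chosen by name, from a list of nucleolar and assembly genes, and matched by symbol to a table of 43346 genes. The choice was made with earlier results of these data known. Whether it shaped the shares of members called below was not tested. All 44 were found, and all 44 were among the 12461 genes that passed a filter on low counts. Polyadenylated RNA was counted in 8 libraries from 3 kinds of mouse macrophage, each unstimulated (0 h) and 3 h after lipopolysaccharide (LPS), a component of Gram-negative bacterial walls. Bone marrow-derived macrophages (BMDM), grown in L929-conditioned medium, had 2 libraries in each state. The cell type labelled hMPDM and RAW 264.7 (RAW), a macrophage-like mouse tumour line grown in DMEM with serum, had 1 library in each state. LPS dose, mouse strain and the meaning of hMPDM are unstated in the labels. No label states whether BMDM replicates came from separate cultures, so the p-values reflect the spread among these libraries alone, and that spread may be technical.

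RNA polymerase I transcribes the ribosomal RNA genes as a long precursor in the nucleolus. The small subunit processome, the box C/D and box H/ACA small nucleolar ribonucleoproteins (snoRNPs, which methylate and pseudouridylate ribosomal RNA) and a series of large subunit factors then fold, cut and modify it. Making ribosomes is costly for a cell, and the genes for it are known targets of the transcription factor MYC and are usually high in growing cells. The readout here is the messenger RNA of these factors, not ribosomal RNA or ribosomes.

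Library totals ran from 3116434 counts (RAW at rest) to 19307312 (BMDM at rest, replicate 2). Levels are CPM, counts scaled to a common library size, here after TMM scaling, which sets each library's effective size from genes that change little. The summed level of 8 macrophage markers was 14484 to 17147 CPM, of which Lyz2 made up 8621 to 12514 CPM. Of the 8, 4 were lower in resting RAW than in resting BMDM past 1.5-fold (background 14.9%). These were Mertk (21.5 against 105 and 109 CPM), Adgre1 (260.3 against 633 and 618), Itgam and Cd68. Among the other 4, Fcgr1 (49.4 against 34.1 and 32.7), Csf1r (1617 against 1353 and 1296) and Lyz2 (10914 against 8902 and 8657) stood above both BMDM libraries. Spi1 stood below both, at 237 against 241 and 256. In contrast, the B cell, T and NK cell, mast cell, dendritic cell, fibroblast and erythroid lists summed to at most 2.14 CPM in any library. A neutrophil list summed to 47.3 to 80.7 CPM in BMDM, 16.2 and 24.2 in hMPDM and 4.45 and 4.49 in RAW, mostly S100a8 and S100a9, and Ly6g, its defining marker, had at most 1 count. One alternative subtracted from the hMPDM LPS library 10.8% of the BMDM LPS level. That is where 16 genes stood in it that had been chosen for being at most 5% of BMDM in resting hMPDM, so their low resting value was fixed by the choice. Whether LPS raised these genes in hMPDM itself was not tested, and the share does not show that the library holds BMDM RNA.

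The MYC and MAX proteins bind the E-box, CACGTG, and the start regions of the 44 genes were searched for it on both strands. RefSeq promoters (GRCm38.p6, 250 bases before to 50 after the start) were given for 39 of the 44 genes, in 43 entries. The E-box was present in 8 of the 43 (18.6%), each in a different gene, and in 7.15% of the 32851 promoters of the same length in that table. In 6 of the 8 (75%) the E-box began after the transcription start, against 15.2% of the promoters with an E-box in the whole table. Of these promoters 4 are shown with CACGTG in capitals, 250 bases before to 30 after the start on the plus strand. Wdr43, Utp4 and Nop2 hold the E-box, and the first rose while the other two fell in LPS-treated BMDM. Ppan fell further and holds none. They lie at chr17:71615965-71616244, chr8:106893390-106893669, chr6:125131633-125131912 and chr9:20887925-20888204.
Wdr43: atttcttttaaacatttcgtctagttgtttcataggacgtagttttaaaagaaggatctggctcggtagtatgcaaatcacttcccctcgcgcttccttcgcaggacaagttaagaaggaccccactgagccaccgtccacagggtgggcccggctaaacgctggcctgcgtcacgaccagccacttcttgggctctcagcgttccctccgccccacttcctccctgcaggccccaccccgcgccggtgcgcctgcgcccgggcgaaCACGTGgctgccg
Utp4: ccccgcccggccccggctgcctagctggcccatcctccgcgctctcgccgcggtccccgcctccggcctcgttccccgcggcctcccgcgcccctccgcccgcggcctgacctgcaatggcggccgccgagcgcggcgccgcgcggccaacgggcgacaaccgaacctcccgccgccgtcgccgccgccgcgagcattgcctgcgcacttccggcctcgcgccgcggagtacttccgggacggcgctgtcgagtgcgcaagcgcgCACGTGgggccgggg
Nop2: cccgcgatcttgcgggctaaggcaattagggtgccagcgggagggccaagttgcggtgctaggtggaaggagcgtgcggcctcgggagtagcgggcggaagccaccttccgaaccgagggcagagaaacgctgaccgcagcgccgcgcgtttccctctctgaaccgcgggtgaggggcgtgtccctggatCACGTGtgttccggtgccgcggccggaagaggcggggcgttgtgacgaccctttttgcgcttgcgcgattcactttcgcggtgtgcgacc
Ppan: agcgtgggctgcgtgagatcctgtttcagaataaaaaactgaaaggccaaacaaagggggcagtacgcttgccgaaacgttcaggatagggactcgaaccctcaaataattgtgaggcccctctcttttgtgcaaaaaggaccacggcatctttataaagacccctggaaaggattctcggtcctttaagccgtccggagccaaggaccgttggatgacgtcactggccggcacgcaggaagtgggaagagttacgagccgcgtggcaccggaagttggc
The E-box began at base 18 after the start in Wdr43, at base 16 in Utp4 and 60 bases before the start in Nop2. Among all members with a promoter entry, it was in 2 of 8 entries of genes that rose in LPS-treated BMDM, in 4 of 25 of genes that fell and in 2 of 10 of genes not called. The member promoters were rich in CG dinucleotides, with a median of 23 against 7 over the table. CACGTG itself holds a CG, so the whole table is an unlike background for its share, and base composition was not adjusted for. Among 108 promoter entries of further genes of the pathway, outside the 44, 16.7% held the E-box. In 44.4% of those it began after the start. AAGATGGCG was in 2 of the 43 entries (4.65%, against 1.40% of the table). A match is a description of the sequence only.

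Per base of gene length (RPKM, the CPM divided by gene length in kilobases), the messenger RNAs of nucleolin (Ncl), Nhp2 and Npm1 were at or near the top in each cell type. Ncl, an abundant nucleolar RNA-binding protein, stood at 50.8 RPKM in resting BMDM, and Wdr12, a large subunit factor, stood lowest at 2.19. In resting hMPDM, Ncl again ranked first (52.5 RPKM) and Wdr12 last (2.30). In resting RAW, Npm1, the histone and ribosome chaperone nucleophosmin, ranked first with 162 RPKM and Wdr12 last with 6.35. The gene lengths used were 11955 bases for Wdr12, 10188 for Ncl and 2665 for Npm1, and these ranks depend on them. By CPM, Fbl was lowest in resting BMDM, at 4.54 and 4.21 against 25.8 and 26.6 for Wdr12. In resting RAW, Ncl stood above Npm1 by CPM (1487 against 431). The order of the 44 genes by length-scaled level was shared: log2 levels correlated at 0.988 (Pearson) and 0.986 (Spearman) between resting BMDM and hMPDM, and at 0.914 and 0.894 between resting BMDM and RAW. These are descriptions over 44 genes that share a library, gene lengths and base composition.

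**Figure D1:**
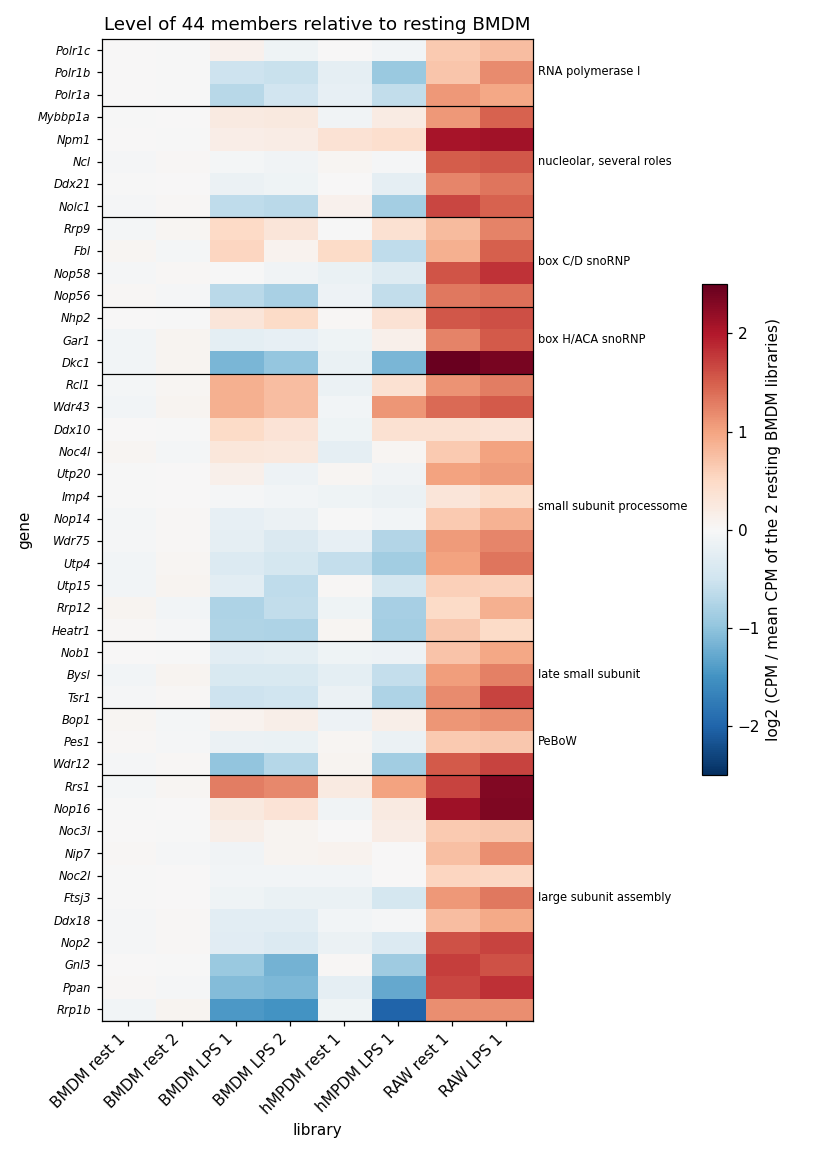
Each row is a gene and each column a library; colour is the log2 ratio of CPM to the mean of the 2 resting BMDM libraries, and rows are grouped by role. The RAW columns are red for all 44 genes at rest, the hMPDM rest column is close to white, and the LPS columns of BMDM and hMPDM hold both colours within most role groups.

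In BMDM, 3 h of LPS split the group. The messenger RNAs of 10 members rose, those of 23 fell, and 11 were not called (edgeR quasi-likelihood test, Benjamini-Hochberg adjusted p under 0.05 over all genes tested). Of all 12461 genes, 31.7% rose and 31.1% fell, against 22.7% and 52.3% of the members. The median log2 change was -0.15 over the members and -0.02 over all genes. Against a fold of 1.5, 3 members rose (Rrs1, Rcl1 and Wdr43; background 12.4%) and 7 fell (Rrp1b, Ppan, Gnl3, Dkc1, Wdr12, Heatr1 and Nop56; background 10.3%). The members summed to 2771 and 2826 CPM in the resting libraries and to 2642 and 2585 in the LPS libraries, a ratio of 0.934. With library-size scaling the sums were 2959 and 3023 CPM against 2192 and 2144, a ratio of 0.725. Lower RNA in every cell and a normal level in fewer cells cannot be told apart in these bulk samples.

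These counts rest on 2 residual degrees of freedom and a fitted coefficient of variation of 2.27% between BMDM libraries: DESeq2 called 5 higher and 13 lower, and a coefficient of variation set at 10% gave 6 and 14. Library-size scaling, which lowers the median of all genes by 0.36, gave 3 higher and 35 lower (1 and 15 past 1.5-fold). Of the 10 rises, 7 lost their call with that scaling, all but Rrs1, Wdr43 and Rcl1. The 13 falls of Polr1a, Polr1b, Nolc1, Nop56, Dkc1, Heatr1, Utp15, Rrp12, Tsr1, Wdr12, Ppan, Gnl3 and Rrp1b and the 3 rises of Rrs1, Wdr43 and Rcl1 were called under all 11 alternatives tried for them.

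Among RNA polymerase I subunits, the transcripts of the 2 largest fell and that of a shared subunit was not called. Polr1a, which encodes the largest catalytic subunit (ENSMUSG00000049553.9, chromosome 6, 71909053 to 71979356, mm10), stood at 63.8 and 63.5 CPM without LPS and 39.3 and 45.6 CPM with it in BMDM (log2 -0.56, SE 0.0655, adjusted p = 1.33e-08). Polr1b, the second-largest subunit (ENSMUSG00000027395.11, chromosome 2, 129100995 to 129126594), stood at 25.3 and 24.8 CPM without LPS and 17.4 and 16.9 CPM with it (log2 -0.55, SE 0.0902, adjusted p = 4.57e-06). Both LPS libraries lay below both resting libraries for each gene, with no overlap. Here and below, the share of all genes separated in this way was not taken, so a lack of overlap only describes these libraries. Polr1c, a subunit shared with RNA polymerase III (ENSMUSG00000067148.11, chromosome 17, 46243920 to 46248054), stood at 21.8 and 21.6 CPM without LPS and 23.3 and 20.2 CPM with it, with the LPS libraries on either side of the resting ones (log2 -0.025, SE 0.0905, adjusted p = 0.829).

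The 5 abundant nucleolar proteins with several roles moved in different directions. Nolc1 (Nopp140), a chaperone of snoRNPs that also binds RNA polymerase I, stood at 95.8 and 98.9 CPM without LPS and 62.4 and 61.4 CPM with it (log2 -0.66, SE 0.0540, adjusted p = 6.62e-12). Npm1 stood at 104 and 103 CPM without LPS and 116 and 117 CPM with it (log2 0.18, SE 0.0468, adjusted p = 0.00143), and Mybbp1a, a nucleolar regulator of transcription, rose by 0.24 (SE 0.0413). Both rises were small and turned into falls when libraries were scaled by total counts (-0.19 and -0.12). Ddx21, an RNA helicase, fell by 0.13 on the log2 scale (SE 0.0432), a call lost without resting replicate 2 or LPS replicate 1. Ncl, at 505 and 530.0 CPM without LPS and 502 and 485 CPM with it, was not called.

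Within each kind of snoRNP 1 member fell (background 31.1%), 1 rose (background 31.7%) and the others were not called. Dkc1 encodes dyskerin, the pseudouridine synthase of the box H/ACA particle (ENSMUSG00000031403.10, chromosome X, 75095854 to 75109777). It stood at 20.9 and 22.8 CPM without LPS and 9.82 and 11.2 CPM with it (log2 -1.03, SE 0.108, adjusted p = 1.31e-09). Its partner Nhp2 rose, from 52.3 and 51.8 to 63.9 and 72.2 CPM (log2 0.41, SE 0.0610, adjusted p = 1.03e-06), and Gar1, the third member of that particle in the list, stood at 12.4 and 13.6 CPM without LPS and 11.0 and 11.2 CPM with it and was not called (log2 -0.23). The rise of Nhp2 lost its call with library-size scaling (0.041). Every BMDM LPS library lay below both resting libraries for Dkc1 and above them for Nhp2, with the share over all genes not taken. Both genes overlap exons of a gene on the other strand, and the strand setting of the counting is unstated: Mpp1, beside Dkc1, rose by 0.80 in log2, and Rmnd5b, beside Nhp2, fell by 0.90.

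In the box C/D particle, Nop56, a core scaffold protein (ENSMUSG00000027405.12, chromosome 2, 130274430 to 130279313), stood at 55.2 and 53.6 CPM without LPS and 34.0 and 31.1 CPM with it (log2 -0.76, SE 0.0692, adjusted p = 6.96e-11). Nop58, its paralogous partner, stood at 68.3 and 71.6 CPM without LPS and 69.2 and 66.0 CPM with it and was not called (-0.059). Rrp9, a protein of the U3 particle, rose by 0.38 (SE 0.0868), a call lost with DESeq2 and with library-size scaling (0.011), and its neighbour on the other strand with shared exons, Parp3, rose by 1.26. Fbl, the methyltransferase fibrillarin, was counted at 4.21 to 6.35 CPM in BMDM and was not called; RefSeq lists a pseudogene of it, Fbl-ps2, and the counting of reads shared with it is unstated.

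The small subunit processome held 12 members, of which 4 rose (background 31.7%) and 6 fell (background 31.1%). Wdr43, a subunit of the part of the processome that binds first to the new transcript (ENSMUSG00000041057.9, chromosome 17, 71616215 to 71659031), stood at 57.9 and 63.1 CPM without LPS and 112 and 103 CPM with it (log2 0.81, SE 0.0566, adjusted p = 1.55e-13). Rcl1, a processome protein needed for an early cut (ENSMUSG00000024785.6, chromosome 19, 29101375 to 29143843), stood at 12.7 and 13.5 CPM without LPS and 24.3 and 22.4 CPM with it (log2 0.82, SE 0.0970, adjusted p = 1.60e-08). For both genes the LPS libraries lay above the resting libraries, with no overlap, as a description of genes already called. Heatr1, which belongs to the same early part of the processome as Wdr43 (ENSMUSG00000050244.8, chromosome 13, 12395398 to 12438677), moved the other way, with 99.4 and 96.3 CPM without LPS and 57.9 and 57.1 CPM with it (log2 -0.77, SE 0.0549, adjusted p = 2.68e-13). Its companions Utp15 (log2 -0.49), Utp4 (-0.41) and Wdr75 (-0.32) also fell, as did Rrp12 (-0.67), a factor for export of pre-ribosomes, and Nop14 (-0.18), whose call was lost without resting replicate 2 or LPS replicate 1. Ddx10, an RNA helicase, rose by 0.39 and Noc4l by 0.28, and both calls were lost with DESeq2 and with library-size scaling (0.028 and -0.089). Imp4 and Utp20 were not called, at -0.052 and -0.019.

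All 3 late small subunit factors fell (background 31.1%). Tsr1, which keeps the immature subunit from translating, stood at 46.2 and 48.1 CPM without LPS and 33.1 and 33.5 CPM with it (log2 -0.50, SE 0.0691, adjusted p = 2.59e-07). Bysl, the assembly factor bystin, fell by 0.38 on the log2 scale, and Nob1, the endonuclease that makes the mature end of 18S ribosomal RNA, by 0.25. Bysl and Nob1 were not called by DESeq2, and the call of Nob1 was also lost without LPS replicate 2. Bysl shares exons with Ccnd3 on the other strand, which fell by 0.67. Tsr1 shares exons with Srr on the other strand, which fell by 0.30.

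Among the large subunit factors, the PeBoW complex (Pes1, Bop1 and Wdr12, which processes the precursor of 28S ribosomal RNA) split again. Wdr12 (ENSMUSG00000026019.11, chromosome 1, 60069785 to 60098645) stood at 25.8 and 26.6 CPM without LPS and 13.3 and 15.9 CPM with it (log2 -0.81, SE 0.0959, adjusted p = 1.53e-08). Wdr12 shares exons with Carf on the other strand, which fell by 0.47. Bop1 was not called (log2 0.13), and Pes1 fell by 0.16 on the log2 scale, a call lost without resting replicate 1 or LPS replicate 2. Of the other 11 large subunit factors, 2 rose (background 31.7%), 6 fell (background 31.1%) and 3 were not called.

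Rrs1, which brings the 5S particle into the large subunit, rose most of all 44 members (ENSMUSG00000061024.8, chromosome 1, 9545408 to 9547455). It stood at 22.7 and 24.1 CPM without LPS and 56.8 and 53.7 CPM with it (log2 1.23, SE 0.0711, adjusted p = 1.83e-15), a fold of 2.34. Rrp1b, a nucleolar protein of the large subunit pathway, fell most (ENSMUSG00000058392.8, chromosome 17, 32036100 to 32062865), with 26.9 and 29.3 CPM without LPS and 10.4 and 10.0 CPM with it (log2 -1.47, SE 0.103, adjusted p = 1.78e-13). Ppan, a nucleolar large subunit factor (ENSMUSG00000004100.7, chromosome 9, 20888175 to 20892178), stood at 29.8 and 28.7 CPM without LPS and 13.8 and 13.4 CPM with it (log2 -1.11, SE 0.0935, adjusted p = 1.08e-11). Gnl3, the GTPase nucleostemin (ENSMUSG00000042354.6, chromosome 14, 31012434 to 31019089), stood at 61.5 and 61.2 CPM without LPS and 32.3 and 27.0 CPM with it (log2 -1.09, SE 0.0728, adjusted p = 5.92e-14). For each of these 4 genes, named for their large changes, the resting and LPS libraries did not overlap, which is no further support. Nop16 rose by 0.30 (-0.06 with library-size scaling), while the methyltransferases Nop2 (-0.31) and Ftsj3 (-0.14) and the helicase Ddx18 (-0.27) fell. The calls of Ftsj3 and Ddx18 were lost without resting replicate 2 or LPS replicate 2, that of Ddx18 also without LPS replicate 1, and that of Nop16 without LPS replicate 2. Nip7, Noc2l and Noc3l were not called.

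**Figure D2:**
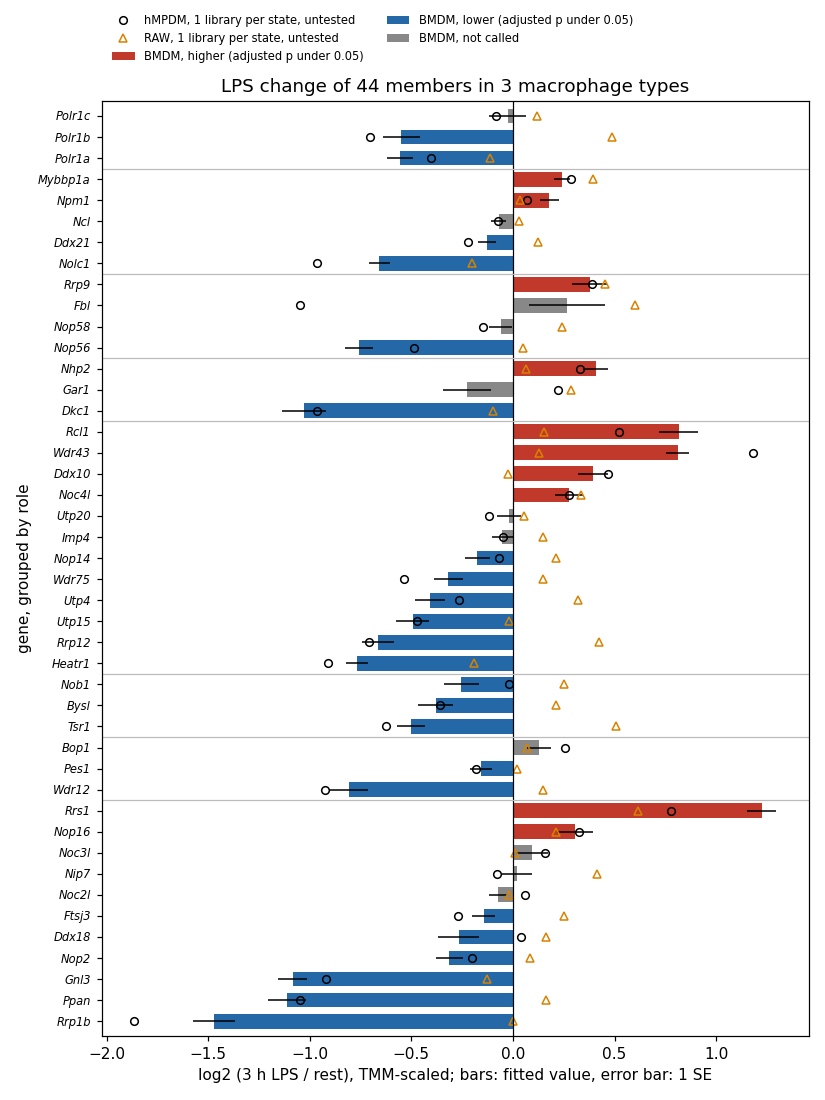
Bars show the log2 LPS change of each member in BMDM with 1 SE, coloured by call; circles and triangles show the log2 ratio of 1 LPS library to 1 resting library in hMPDM and RAW, with no test. Rrs1, Rcl1 and Wdr43 extend furthest to the right and Rrp1b, Ppan, Gnl3 and Dkc1 furthest to the left in BMDM; circles mostly follow the bars, and triangles lie between -0.20 and 0.62.

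Ratios of counts between 2 members of 1 library do not depend on how libraries are scaled, and they were taken for 11 pairs chosen after the values were seen, as a description. The order within a pair was chosen too, so neither the direction nor the size of a shift in BMDM is a finding. Of the 11, 6 are plotted, and the PeBoW pair Bop1 per Pes1 went the other way, from 0.764 and 0.737 to 0.883 and 0.933 in BMDM and from 0.672 to 0.913 in hMPDM. Dkc1 had 0.399 and 0.439 reads per Nhp2 read in resting BMDM and 0.154 and 0.156 after LPS. The same ratio went from 0.366 to 0.148 in hMPDM and from 0.789 to 0.706 in RAW. Both LPS values of BMDM and that of hMPDM lay far below their resting values, and the RAW values lay close together.

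Nop56 per Nop58 went from 0.808 and 0.749 to 0.491 and 0.471 in BMDM, from 0.803 to 0.634 in hMPDM and from 0.657 to 0.576 in RAW. Wdr12 per Bop1 went from 0.413 and 0.461 to 0.208 and 0.239 in BMDM and from 0.498 to 0.218 in hMPDM, but from 0.588 to 0.622 in RAW. In BMDM both ratios differed between states by more than the gap between replicates, though the pairs were chosen after the values were seen. Heatr1 per Wdr43 went from 1.72 and 1.52 to 0.515 and 0.556 in BMDM, from 1.77 to 0.413 in hMPDM and from 0.974 to 0.781 in RAW. Rrp1b fell most and Rrs1 rose most of all members in BMDM, so the wide shift of their ratio there was fixed by the choice. In BMDM Rrp1b per Rrs1 went from 1.18 and 1.22 to 0.184 and 0.187. The same ratio went from 0.956 to 0.150 in hMPDM and from 0.831 to 0.542 in RAW. For Polr1b per Polr1c, BMDM went from 1.16 and 1.15 to 0.747 and 0.836, hMPDM from 0.978 to 0.632, and RAW the other way, from 1.18 to 1.53.

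**Figure D3:**
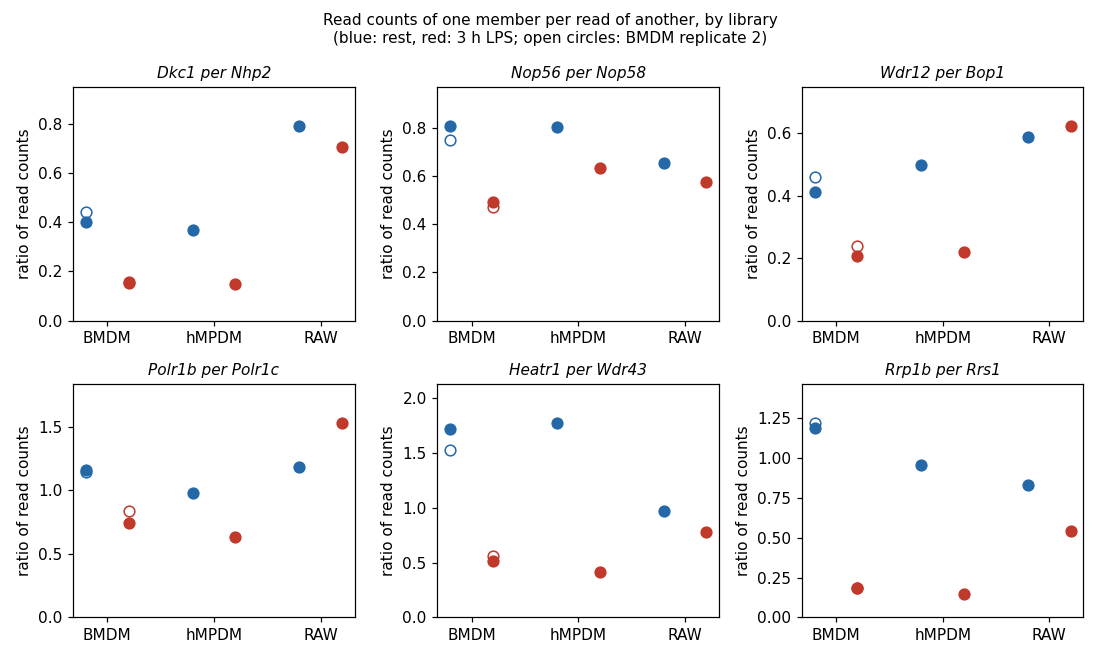
Each panel plots the read count of one member divided by that of another (linear axis from 0) in each of the 8 libraries; blue is rest, red is 3 h LPS, and open circles are BMDM replicate 2. Pairs and their order were chosen after the values were seen. For Rrp1b per Rrs1 the red points of BMDM lie at 0.184 and 0.187 and the blue ones at 1.18 and 1.22, against 0.542 and 0.831 in RAW.

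In hMPDM, 1 LPS library against 1 resting library gave no replicate check and no p-value. Genes were counted where the ratio was at least 1.5-fold and the higher library had at least 5 CPM. By this rule 2 members were higher after LPS (background 12.7%) and 11 lower (background 13.2%). Wdr43 went from 57.5 to 131 CPM, a ratio of 2.28 (95% interval 2.05 to 2.52), and Rrs1 from 27.2 to 46.7 CPM. Rrp1b was lowest relative to rest, from 26.0 to 6.98 CPM, a ratio of 0.269 (95% interval 0.182 to 0.385). The other lower members were Fbl, Ppan, Dkc1, Nolc1, Wdr12, Gnl3, Heatr1, Rrp12, Polr1b and Tsr1, and Fbl had only 13 counts after LPS. At 2-fold the counts were 1 and 3, with library-size scaling 1 and 19, and with that 10.8% of the BMDM LPS level subtracted 1 and 14. Intervals are exact binomial intervals and cover counting error only.

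Of the 23 members that fell in BMDM, 22 had a ratio below 1 in hMPDM, and of the 10 that rose, 10 had a ratio above 1. The matching shares over all genes that fell or rose in BMDM were not taken. The counts therefore do not show an agreement particular to the members. Over the 44 members the log2 changes of BMDM and hMPDM, which share no library, correlated at 0.883 (Pearson) and 0.857 (Spearman), and at 0.858 and 0.851 with the 10.8% of the BMDM LPS level subtracted. The 2 BMDM replicates, each LPS library against the resting library of its number, correlated at 0.958 and 0.959. Points are genes of the same libraries and share scaling and depth, so no p-value is given.

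Tested against BMDM in 1 fit, the hMPDM response differed for 3 members, 1 in the upward direction (background 3.96%) and 2 in the downward (background 3.89%). Wdr43 rose by 0.38 (SE 0.107) more in hMPDM, and Rrs1 changed by -0.44 (SE 0.141) and Fbl by -1.36 (SE 0.432) relative to BMDM. DESeq2 called 0 in both directions, and so did a coefficient of variation of 10%. No member passed the test against 1.5-fold in either direction (background 0.345% and 0.570%). The share called among the members was near that of all genes.

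In RAW cells, again 1 library against 1, the ratio rule counted 2 members higher after LPS (Rrs1 and Fbl; background 5.23%) and 0 lower (background 4.53%). Rrs1 went from 75.9 to 116 CPM, a ratio of 1.53 (95% interval 1.33 to 1.78), and Fbl from 8.11 to 12.4 CPM on 31 and 58 counts, with an interval that includes 1. The ratios of all 44 members ran from 0.868 (Nolc1) to 1.53 (Rrs1), and 36 of 44 were above 1. Over all genes tested the median log2 ratio was 0, and the share above 1 was not taken. The count of 36 depends on the scaling. The summed level of the members had a ratio of 1.08 with TMM and of 1.00 with library-size scaling. At 2-fold, or with library-size scaling, 0 members were counted in either direction. Of the 23 members that fell in BMDM, 6 had a ratio below 1 in RAW, and of the 10 that rose, 9 had a ratio above 1. Here too the matching shares over all genes were not taken. The changes in BMDM and RAW correlated at 0.381 and 0.285 over the 44 members.

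The difference between the RAW and BMDM responses was itself tested, taking the single RAW libraries to be as variable as the BMDM ones. It was positive for 22 members, meaning a higher LPS change in RAW (background 10.0%), and negative for 4 (background 12.7%), with a median of 0.39 against 0.00024 over all genes. Past 1.5-fold were 8 members, all positive (background 2.70% for positive and 5.12% for negative): Rrp1b, Ppan, Rrp12, Polr1b, Tsr1, Wdr12, Gnl3 and Dkc1. Rrp1b stood at 63.1 and 63.1 CPM in RAW before and after LPS, where BMDM fell from 26.9 and 29.3 to 10.4 and 10.0 CPM (difference of log2 changes 1.47, SE 0.168, adjusted p = 4.62e-08). Ppan stood at 93.4 and 104 CPM in RAW (difference 1.27, SE 0.141).

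Polr1b, in the RNA polymerase I group, stood at 40.6 and 56.9 CPM in RAW at rest and after LPS, with both BMDM LPS libraries below rest (difference 1.04, SE 0.168, adjusted p = 1.62e-05). Polr1a stood at 135 and 125 CPM in RAW (difference 0.44, SE 0.119), and Polr1c at 34.3 and 37.2 CPM and was not called. The 4 members with a lower change in RAW were Wdr43 (-0.68, SE 0.108), Rcl1 (-0.66, SE 0.205), Rrs1 (-0.61, SE 0.132) and Nhp2 (-0.35, SE 0.110), which had risen in BMDM. With DESeq2 the counts were 9 and 1, with a coefficient of variation of 10% 9 and 0, and with library-size scaling, which moves the median of all genes by 0.27, 31 and 2. Nop56, Dkc1, Rrp12, Tsr1, Wdr12, Ppan, Gnl3 and Rrp1b kept their call under all 10 alternatives. This test uses the same BMDM libraries as the BMDM response and as the comparison at rest, so a gene high or low in them enters all 3.

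At rest, RAW held more of every member's messenger RNA than BMDM did. All 44 were higher (background 27.1% higher and 31.3% lower) and 27 were higher past the test against 1.5-fold (background 11.2% higher and 14.9% lower), with a median log2 difference of 1.08 against -0.06 over all genes. The summed level was 6650 CPM in RAW against 2771 and 2826 in BMDM, a ratio of 2.38, and it made up 0.816% of all RAW counts against 0.296% and 0.302% in BMDM. DESeq2 called 40 and a coefficient of variation of 10% called 42 higher, and library-size scaling, which moves the median of all genes by 0.20, gave 41 past 1.5-fold. RAW had 1 library and differs from BMDM in culture medium and origin, so cell type, culture and library cannot be told apart.

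Dkc1 differed most, at 120.4 CPM in RAW and 20.9 and 22.8 in BMDM (log2 2.46, SE 0.0981, adjusted p = 6.83e-19). Nop16, a large subunit factor, stood at 82.9 CPM against 18.9 and 19.0 (log2 2.13, SE 0.108, adjusted p = 2.29e-16). Npm1 stood at 431 CPM against 104 and 103 (log2 2.06, SE 0.0553, adjusted p = 4.47e-23). After these came Gnl3, at 1.72 (SE 0.0762). By role, the 5 multifunctional nucleolar proteins had a median of 1.52 and the box H/ACA proteins 1.55. The lowest medians were 0.70 for the 3 RNA polymerase I subunits and 0.67 for the 12 processome members. The smallest differences were those of Imp4 (0.31, SE 0.0792), Ddx10 (0.38, SE 0.128), Rrp12 (0.47, SE 0.112) and Noc2l (0.53, SE 0.0668).

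Among polymerase subunits, Polr1a stood at 135 CPM in resting RAW against 63.8 and 63.5 in BMDM (log2 1.08, SE 0.0843, adjusted p = 4.06e-12). Polr1b differed by 0.70 (SE 0.129) and Polr1c by 0.66 (SE 0.143), and neither passed the test against 1.5-fold. After LPS, RAW lay above both BMDM libraries for 43 of the 44 members, with a median ratio of 2.57 against 2.11 at rest. RAW and BMDM after LPS were not tested against each other. The matching share and median ratio over all genes were not taken, so the count is a description only. Ddx10 was the exception, at 39.8 CPM in RAW and 43.5 and 39.5 in BMDM. Dkc1 had the largest ratio after LPS, 10.7.

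**Figure D4:**
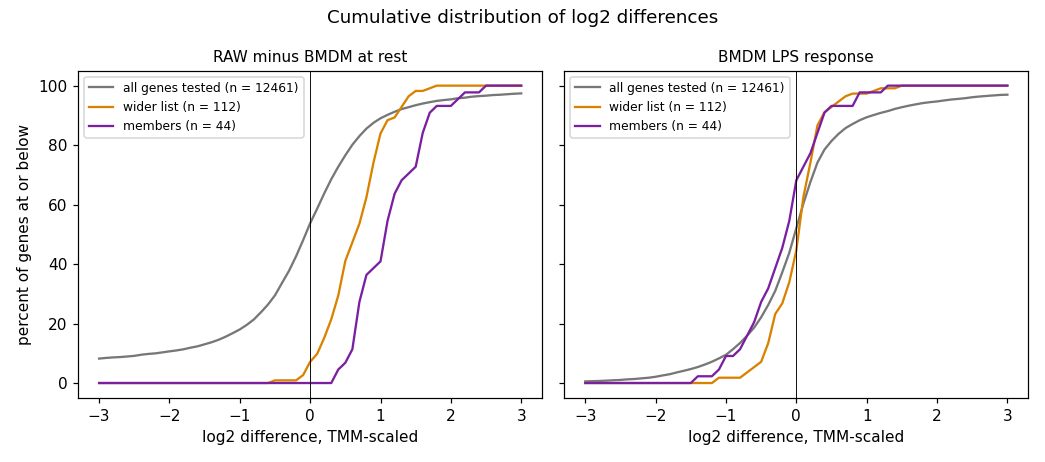
Cumulative percent of genes (y) at or below a log2 difference (x) for the 44 members, 112 further ribosome biogenesis genes and all 12461 genes tested; left, RAW against BMDM at rest, right, LPS against rest in BMDM. On the left the member curve lies wholly to the right of 0. The wider list lies between it and all genes up to a log2 difference of 1.2, and crosses the curve of all genes beyond that. On the right the member curve spreads to both sides, from -1.47 to 1.23.

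Resting hMPDM and BMDM were close. Of the 44 members, 41 were within 1.2-fold of the mean of the resting BMDM libraries, and the summed levels had a ratio of 0.985. Over all genes tested, the quartiles of the log2 difference were -0.22 and 0.19, both within 1.2-fold. The share of all genes within that limit was not taken, so the closeness is not shown to be particular to the members. Npm1 was higher in hMPDM (133 CPM; log2 0.36, SE 0.0511, adjusted p = 1.17e-06; background for higher 19.0%). Of the 8 that were lower (background 19.2%), Utp4 differed most, at 26.3 CPM against 38.2 and 41.4 in BMDM (log2 -0.60, SE 0.0847, adjusted p = 9.24e-07). The others were Bysl (-0.24), Ppan (-0.22), Noc4l (-0.22), Polr1a (-0.21), Wdr75 (-0.20), Nop58 (-0.17) and Ftsj3 (-0.17). Utp4 alone kept its call under all 10 alternatives; the number lower was 4 without resting BMDM replicate 1, 3 without replicate 2, and 1 with DESeq2. Past the test against 1.5-fold were 0 members in either direction (background 3.12% and 5.02%).

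A single LPS response fitted over the 3 cell types, in which BMDM weighs most, called 9 members higher (background 25.0%) and 10 lower (background 24.2%), with a median of -0.06 against -0.02 over all genes. Past 1.5-fold were 1 higher (Rrs1; background 8.43%) and 0 lower (background 5.26%). Rrs1 (log2 0.98, SE 0.118, adjusted p = 0.000982), Wdr43 (0.75, SE 0.157) and Rcl1 (0.61, SE 0.125) rose most. Rrp1b (log2 -1.09, SE 0.283, adjusted p = 0.0173), Gnl3 (-0.78, SE 0.166), Ppan (-0.72, SE 0.225) and Dkc1 (-0.72, SE 0.177) fell most. The Rrs1 call past 1.5-fold was lost without any 1 of the 4 BMDM libraries and with library-size scaling. Without any 1 of those libraries, 4 to 6 members were lower, and without the hMPDM libraries, an alternative added after the data were seen, 7 were higher and 4 lower. The falls of Polr1a, Nolc1, Heatr1 and Gnl3 and the rises of Rrs1, Wdr43 and Rcl1 held under all 11 alternatives. With library-size scaling the counts were 3 higher and 29 lower.

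A wider list of 112 further genes of the pathway, outside the 44, was read beside the 44. In the BMDM response 32 rose and 32 fell (28.6% each way, against 31.7% and 31.1% of all genes), 3 and 4 past 1.5-fold (background 12.4% and 10.3%), with a median of 0.01. The largest rises were those of Sbds, which releases an anti-association factor from new large subunits, and of that factor, Eif6. Sbds stood at 61.5 and 64.8 CPM without LPS and 179 and 175 CPM with it (log2 1.48, SE 0.0483, adjusted p = 8.35e-22), and Eif6 at 80.9 and 76.5 CPM without LPS and 169 and 172 CPM with it (log2 1.12, SE 0.0471, adjusted p = 6.22e-19). Both LPS libraries were above both resting libraries for each gene, as a description of the largest rises. Cd3eap, a further RNA polymerase I subunit, fell (log2 -1.11, SE 0.129, adjusted p = 1.04e-08), as did Ubtf, the upstream factor that holds ribosomal RNA genes open (log2 -0.47, SE 0.0483, adjusted p = 9.40e-10), while Rrn3, the initiation factor, was not called (log2 0.012). In the 12 genes of the wider polymerase I machinery, 2 rose and 4 fell (background 31.7% and 31.1%). At rest, 87 of the 112 were higher and 1 (Sbds) lower in RAW than in BMDM (background 27.1% and 31.3%), 40 of them higher past 1.5-fold (background 11.2%), with a median of 0.62.

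Genes that move with growth were read beside these results. Myc stood at 48.1 and 52.2 CPM without LPS and 8.01 and 9.41 CPM with it in BMDM, 32.2 and 13.1 CPM in hMPDM at rest and after LPS, and 1.83 and 15.8 CPM in RAW. Mycn, a paralogue, was counted at 396 and 336 CPM in RAW and at most 0.436 CPM in every other library. Of 16 proliferation genes, 14 fell (background 31.1%) and 0 rose (background 31.7%) in LPS-treated BMDM. Of the same 16, 13 were higher (background 27.1%) and 1 lower (background 31.3%) in resting RAW than in resting BMDM. Their summed level was 3113 and 3183 CPM in resting BMDM, 2204 and 2145 in LPS-treated BMDM, 2593 and 1722 in hMPDM, and 3945 and 2976 in RAW. In RAW the summed level of the 44 members was 6650 CPM before and 7152 CPM after LPS, and 8161 and 8199 CPM with library-size scaling. The part of proliferation or of the MYC genes in the members' differences was not tested.

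Several members are hosts of small nucleolar RNA genes, which lie in introns and guide the modification of ribosomal RNA. In the GENCODE M21 annotation 8 of the 44 members hold 23 such genes on their own strand: Nop56, Nop58, Gnl3, Ncl, Wdr43, Ppan, Tsr1 and Dkc1. In LPS-treated BMDM 5 of these 8 fell, 4 of them past 1.5-fold (Nop56, Gnl3, Ppan and Dkc1), 1 (Wdr43) rose, and the median was -0.63. Over all genes 31.1% fell, 10.3% past 1.5-fold, and 31.7% rose. The other 36 members had 18 falls, 3 past 1.5-fold, 9 rises and a median of -0.14. The split was made after the values were seen and has no test, and the small nucleolar RNAs themselves were not analysed here. In all, 15 of the 44 members overlap exons of a gene on the other strand, which matters for their level only if the counting ignored strand.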

How the data were processed

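Polyadenylated RNA of 8 libraries was read from a table of counts per gene that the authors deposited. Per the submitters' processing notes, cutadapt, STAR, SAMtools, bedtools and featureCounts were used with mm10, with versions, strand setting and treatment of multi-mapping reads not given in the sources used here. A stranded library kit was used, per the labels' protocols. The table has 2 further columns that matched no sample and were not used.

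Counts were tested with edgeR 4.0.16 in R 4.3.3: low-count filter filterByExpr, TMM scaling, quasi-likelihood fit over all 6 groups, Benjamini-Hochberg adjustment over 12461 genes, threshold 0.05. A second rule tested against a fold of 1.5 (glmTreat). SE is the estimate divided by the root of F. The hMPDM and RAW libraries, 1 per group, take their spread from the BMDM pairs. Single-library ratios used a prior count of 2, and their exact 95% intervals cover counting error only, as does the floor of 3 counts, 0.155 to 0.963 CPM by library. RPKM used the gene length given in the table. DESeq2 1.42.0, a coefficient of variation of 10%, other scalings and filters and leaving out each BMDM library were the alternatives. Only the test of the BMDM LPS response was run on simulated data, which held no differences between cell types. The other tests and the choice of scaling were not checked in this way.

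Members, gene lists and tests were chosen with earlier results of these data known. Full statistics were given, by rule, for the polymerase subunits, the members past 1.5-fold or with the largest change of their role group in BMDM, the 4 highest and 4 lowest estimates elsewhere, and the 3 highest and 3 lowest of the wider list, from which the text gives a selection. Sbds and Eif6 are among these, and Ubtf, Rrn3 and the genes of the overlap clauses were named after their values were seen. Of the 19 promoter entries whose RefSeq start equals the start of the gene in the deposited table, those of the 3 members with an E-box and the 1 without that changed most in BMDM were printed. The replicates of a BMDM state differed by more than counting noise, with a chi-square per degree of freedom of 1.63 at rest and 1.70 after LPS.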

Additional observations from a re-analysis of the deposited data

Results flagged for a closer look

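Differences in the LPS response between cell types passed the adjusted threshold of edgeR's quasi-likelihood test for 29 pairs of member and cell type, each a difference of log2 changes with 1 library per state in hMPDM or RAW.

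For hMPDM against BMDM, Wdr43 differed by 0.38 (adjusted p = 0.0243), Rrs1 by -0.44 (adjusted p = 0.0494) and Fbl by -1.36 (adjusted p = 0.0491, on 13 counts in the hMPDM LPS library). None of these 3 kept its call under all alternatives tried.

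For RAW against BMDM, the late small subunit factors differed by 1.01 (Tsr1), 0.59 (Bysl) and 0.51 (Nob1). Large subunit factors differed by 1.47 (Rrp1b), 1.27 (Ppan), 0.96 (Wdr12), 0.96 (Gnl3), 0.40 (Nop2) and 0.40 (Ftsj3). Processome members differed by 1.09 (Rrp12), 0.73 (Utp4), 0.58 (Heatr1), 0.47 (Utp15), 0.47 (Wdr75) and 0.39 (Nop14). Polymerase subunits differed by 1.04 (Polr1b) and 0.44 (Polr1a), and snoRNP proteins by 0.93 (Dkc1), 0.81 (Nop56) and 0.30 (Nop58). Nolc1 differed by 0.45 and Ddx21 by 0.25. Wdr43 (-0.68), Rcl1 (-0.66), Rrs1 (-0.61) and Nhp2 (-0.35) differed in the other direction. DESeq2 called 10 of the 44 members in this comparison, 9 of them positive.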

How the results depend on the processing

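With library-size scaling, the numbers of members higher and lower were 3 and 35 in the BMDM response (1 and 15 past 1.5-fold), 3 and 2 for resting hMPDM against BMDM, 3 and 29 in the common response (0 and 2 past 1.5-fold) and 1 and 19 for the hMPDM ratio. It gave 41 past 1.5-fold for resting RAW, 2 lower for the RAW difference in response, and 0 for the RAW ratio. DESeq2 gave 5 and 13 in the BMDM response, 1 lower for resting hMPDM, 0 and 0 for the hMPDM difference and 9 and 1 for the RAW difference. A coefficient of variation of 10% gave 6 and 14, 0 and 1, 0 and 0, and 9 and 0 in the same order. RLE size factors gave 2 higher for resting hMPDM. Without the low-count filter, 2 were higher and 2 lower for resting hMPDM, 1 lower for the hMPDM difference and 1 lower past 1.5-fold in the common response. Leaving out 1 BMDM library gave 1 to 3 higher and 3 to 8 lower for resting hMPDM, 0 to 1 higher and 0 to 2 lower for the hMPDM difference, and 4 to 6 lower with 0 higher past 1.5-fold in each case in the common response. Without hMPDM, the common response had 4 lower. At 2-fold, the hMPDM ratio counted 1 and 3 and the RAW ratio 0, and the hMPDM ratio counted 1 higher with 10.8% of the BMDM LPS level subtracted. Causes of these shifts were not tested.

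Same-numbered BMDM libraries showed no shared deviation over all genes tested, with a correlation of deviations of -0.035. Whether they came from the same culture is unstated in the labels. With the replicate number as a block the BMDM response kept 10 higher and 23 lower, resting hMPDM had 2 lower and the common response 7 lower.

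Signs turned for single genes. With library-size scaling the BMDM change was -0.19 for Npm1, -0.12 for Mybbp1a, -0.098 for Fbl, -0.089 for Noc4l, -0.24 for Bop1, -0.061 for Nop16, -0.35 for Nip7 and -0.27 for Noc3l. The common change was then -0.30 for Polr1c, -0.013 for Mybbp1a, -0.0099 for Nhp2, -0.016 for Noc4l and -0.017 for Nop16. The BMDM change of Utp20 was 0.0055 with DESeq2 and 0.0065 with a coefficient of variation of 10%, that of Nip7 was -0.0048 without the filter, and Polr1c was -0.028 in resting hMPDM with the replicate block and -0.017 in the common response without the filter. Leaving out 1 BMDM library gave -0.12 to 0.13 for Utp20, -0.080 to 0.081 for Nip7 and -0.096 to 0.10 for Polr1c in BMDM, and for Polr1c -0.18 to 0.013 in the hMPDM difference and -0.035 to 0.053 in the common response. Over 2772 member estimates under alternatives, 98 changed sign, 8 of them called, all 8 with library-size scaling. Depth limits RAW most, with 3116434 and 4078496 counts and a floor of up to 0.963 CPM.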
